A study of Mus musculus with 4 samples.

Results

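The genes described here encode the 7 inhibitors of cyclin-dependent kinases (CDKs), chosen by symbol as the members of both inhibitor families: Cdkn1a, Cdkn1b and Cdkn1c of the Cip/Kip family and Cdkn2a, Cdkn2b, Cdkn2c and Cdkn2d of the Ink4 family. All 7 were present among the 24016 gene symbols of the count tables, and each was represented by its transcript with the highest total over the libraries. RNA was measured in hematopoietic stem cells sorted from the bone marrow of C57BL/6 mice at 4 months of age, as lineage-negative cells with Sca-1, c-Kit and CD150 and without CD34 and Flt3. Wild-type mice (WT) gave 2 libraries and NHD13+ transgenic mice (NHD13) gave 2. The NHD13 transgene encodes a NUP98-HOXD13 fusion protein, and the mice serve as a model of myelodysplastic syndrome; which promoter drives it is not stated in the labels. Nor do they state if each library was a separate animal or a pool of animals, so every SD and p-value measures only the spread between these samples.

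CDKs bound to cyclins drive a cell from rest through DNA replication and division. Cip/Kip proteins bind whole cyclin-CDK complexes, whereas Ink4 proteins bind CDK4 and CDK6 alone and keep them from D-type cyclins. Most stem cells of adult marrow are at rest, and the Cip/Kip proteins p21 (Cdkn1a), p27 (Cdkn1b) and p57 (Cdkn1c) are known as brakes that help to keep them there, while the locus of Cdkn2a is normally held silent in them by Polycomb proteins.

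With 1 transcript per gene, the libraries held 35025974 to 48423689 counts. The genes of the sort gate were present in all 4, with Kit at 991 to 1271 CPM (counts per 1000000 counts of a library after scaling) and Slamf1 (CD150) at 117 to 143. Ly6a (Sca-1) was at 273 and 200 CPM in WT and 131 and 77.7 in NHD13 (log2 fold change -1.18 ± 0.30, not called). Of the genes whose proteins the gate excluded, Cd34 was at 120 and 138 CPM in WT and 51.6 and 21.4 in NHD13, and Flt3 at 10.4 and 15.4 CPM in WT and 59.0 and 4.33 in NHD13. Of 11 stem cell markers, with Kit, Slamf1 and Ly6a among them, 10 had log2 fold changes below 0 and 1 above, with a median of -0.74. Of these 3 were called, all lower in NHD13: Ndn, Ctnnal1 and Hlf. This is 27.3 percent of the list, where 2.22 percent of all genes tested were called lower. Markers of other cells also differed between the groups and between single libraries. Cd48, a marker of progenitors, was at 4.83 and 5.06 CPM in WT and 267 and 223 in NHD13 (log2 fold change 5.63 ± 0.15). Of 5 early myeloid markers 4 were called higher in NHD13, among them Mpo at 49.0 and 39.2 against 709 and 587 CPM. The other, Prtn3, was lower in NHD13, at 270 and 273 CPM in WT and 229 and 165 in NHD13. The 5 summed to 351 and 337 CPM in WT and 1315 and 916 in NHD13. The sum of 5 mast cell and basophil markers was 26.1 and 8.02 CPM in WT and 139 and 118 in NHD13, with Fcer1a at 0 in NHD13 library 1. Of these 5, however, 3 had log2 fold changes below 0 and 2 above. Their median was -0.75, and the 1 called was lower in NHD13. The summed level of 8 late neutrophil markers was 2752 CPM in NHD13 library 1 against 273 to 361 in the others, with none at 0 counts in any library. That of 8 T and NK cell markers was 98.4 CPM in NHD13 library 2 against 2.30 to 3.55, with 1 marker, Cd8a, at 0 in WT library 2 and NHD13 library 1. In NHD13 library 2 Cd3e, Cd3g and Gzmb were at 36.3, 30.8 and 30.3 CPM. The other T and NK cell markers each lay at or below 0.633 CPM there. Among 7 stroma and endothelium markers, summing to 130 CPM in WT library 1 and 84.2 to 112 in the others, Sparc was at 35.6 CPM in WT library 1 and 0.407 to 2.08 in the others, and Lepr was at 0 in NHD13 library 1.

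No CDK inhibitor gene was called different between NHD13 and WT by edgeR's quasi-likelihood test at an adjusted p under 0.05 over all 14853 genes tested, of which 4.28 percent were called. Of the 7 genes 6 passed the filter on low counts. At an unadjusted p under 0.05 there was 1, Cdkn1a, where 26.8 percent of all genes tested lay under that p. DESeq2 called 1 member, also Cdkn1a, where it called 17.5 percent of all genes tested, and limma-voom called 0, where it called 4.17 percent. Of the 6 log2 fold changes 5 were below 0, with a median of -0.20 against 0.00 over all genes tested, and in 3 genes, Cdkn1a, Cdkn2c and Cdkn2d, both NHD13 libraries lay below both WT libraries. Over all genes tested 30.3 percent did so, so separation of this kind was common.

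**Figure D1:**
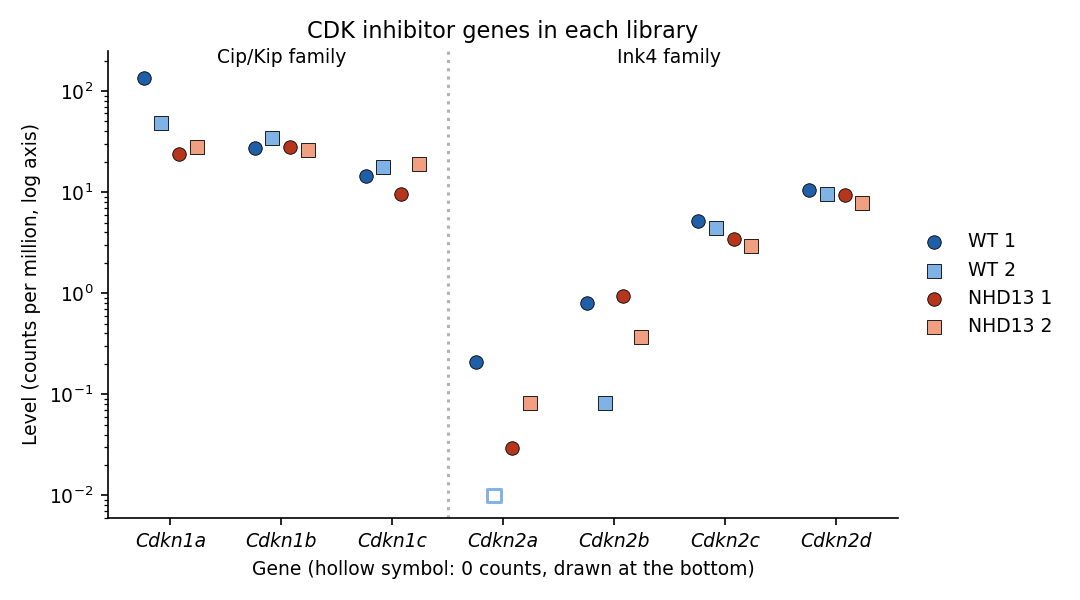
Level of each CDK inhibitor gene in each library, in CPM on a log axis; circles are the first and squares the second library of a group, and the hollow square marks 0 counts. Cdkn1a stands at 135 CPM in WT library 1 and Cdkn2a lies at or below 0.207 CPM in all 4 libraries.

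Cdkn1a encodes p21, a target of the tumor suppressor p53 and an inhibitor of CDK2 complexes. Its level was 135 and 47.9 CPM in WT libraries 1 and 2, against 23.9 and 27.7 CPM in NHD13 libraries 1 and 2 (mean 91.5 ± 61.6 against 25.8 ± 2.69; SD, n = 2 each). Both NHD13 libraries were low and close to each other, while the WT libraries differed 2.82-fold. The log2 fold change of NHD13 over WT was -1.83 ± 0.50 (SE; 95% interval -3.12 to -0.54, not adjusted), or 3.55-fold lower in NHD13, with an adjusted p of 0.106 by edgeR and 0.000288 by DESeq2. Its size rested on which WT library was used: it was -0.90 without WT library 1 and -2.39 without WT library 2, with adjusted p of 0.226 and 0.0837. Among the 2504 genes within 0.5 of its average log2 CPM, 4 had a larger gap between the WT libraries than Cdkn1a.

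Cdkn1a was counted as a pair of transcripts with different start sites, NM_001111099 from the upstream one and NM_007669 from the downstream one. Their counts were nearly the same, 5843 and 5875 in WT library 1 and 814 and 821 in NHD13 library 1, so the start sites could not be told apart by these counts. The 250 bases before each start are shown because Cdkn1a has the largest difference of the family and because the window of the upstream start holds a match to the p53 consensus. They were taken from RefSeq, build GRCm38.p6, plus strand, at chr17:29090729-29090978 (upstream) and chr17:29093519-29093768 (downstream). Capitals mark the p53 match of 20 bases, with 1 mismatch outside its cores, in the first and the GC boxes (GGGCGG, either strand), a motif bound by Sp1, in the second.
Cdkn1a upstream start: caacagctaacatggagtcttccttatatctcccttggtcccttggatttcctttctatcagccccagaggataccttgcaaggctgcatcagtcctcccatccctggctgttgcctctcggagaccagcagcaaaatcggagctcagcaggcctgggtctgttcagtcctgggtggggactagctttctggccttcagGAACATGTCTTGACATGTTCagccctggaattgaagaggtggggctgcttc
Cdkn1a downstream start: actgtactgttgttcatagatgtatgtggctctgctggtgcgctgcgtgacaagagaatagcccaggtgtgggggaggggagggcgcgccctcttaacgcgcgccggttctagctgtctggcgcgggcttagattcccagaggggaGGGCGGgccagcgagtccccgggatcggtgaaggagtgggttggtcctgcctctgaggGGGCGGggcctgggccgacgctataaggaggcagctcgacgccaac
The p53 match ends 31 bases before the upstream start. Such a match occurred in 15 of 32851 windows of that length before annotated starts, 0.0457 percent, and in none of the other 8 windows available for these genes (Cdkn1c had no window). Of the 15 genes with a match 5 passed the filter on low counts. Besides Cdkn1a these were Rps27l (log2 fold change 0.05), Calhm2 (0.10), Sptbn4 (0.48) and Gm15987 (1.29), with none of them called. GC boxes occurred in 32.7 percent of windows. The second Cdkn1a window held 2 of them and the first 0. A match of letters is a description of the window and not evidence of binding in these cells.

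Other targets of p53 were then set beside Cdkn1a. Of 25 tested, 3 were called, all lower in NHD13: the death receptor gene Fas (log2 fold change -1.60 ± 0.20), the cytokine gene Gdf15 (-2.82 ± 0.36) and the kinase gene Plk2 (-0.89 ± 0.15). This is 12.0 percent of the list, where 2.22 percent of all genes tested were called lower, and without NHD13 library 1 the list had 0 calls. Log2 fold changes were below 0 in 19 of 25, with a median of -0.34, where 7407 of all 14853 genes tested were below 0. In 13 of the 25 both NHD13 libraries lay below both WT libraries, where 30.3 percent of all genes tested did so. The genes that shared the high level of Cdkn1a in WT library 1 were others. In WT libraries 1 and 2, Perp, a membrane protein gene of cell death, was at 94.5 and 12.2 CPM, Phlda3 at 13.1 and 2.49, Eda2r at 11.4 and 4.24, Zmat3 at 11.4 and 3.89, and Mdm2, the ubiquitin ligase of p53, at 181 and 85.3 CPM. With Pmaip1 these were 6 of 25 targets at least 2-fold higher in WT library 1 than in WT library 2, or 24 percent, against 7.66 percent of all genes tested. Fas, Gdf15 and Plk2 were level within WT, at 15 and 14.3, 4.55 and 5.25, and 589 and 550 CPM. Trp53 itself, which encodes p53, was at 316 and 293 CPM in WT and 349 and 373 in NHD13 (log2 fold change 0.25 ± 0.09, adjusted p 0.176). Of the 7 stroma and endothelium markers 4 were higher in WT library 1 than in WT library 2, with the widest gaps in Sparc and Col1a1 (12.8 and 0.848 CPM), and 3 were lower, Pecam1 (67.5 and 78.4 CPM), Cdh5 and Lepr. Their part in the level of Cdkn1a there was not tested.

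**Figure D2:**
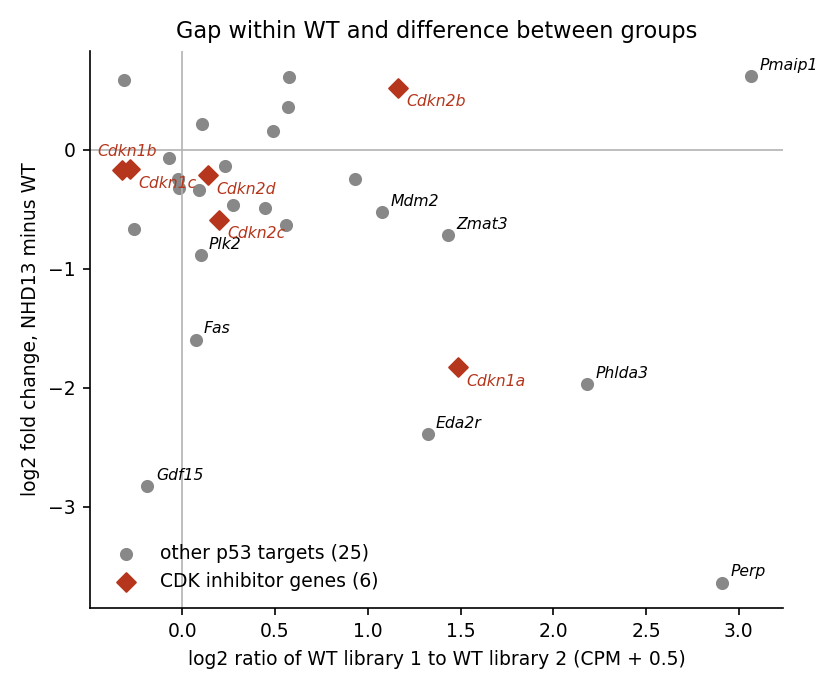
For 25 other p53 targets (grey) and 6 CDK inhibitor genes (red), the log2 ratio of WT library 1 to WT library 2 (CPM + 0.5) on the x axis and the log2 fold change of NHD13 over WT on the y axis; both axes use the WT libraries, so they are not independent. Cdkn1a lies between Eda2r and Phlda3 on the x axis, high in WT library 1 and low in NHD13, whereas Fas and Plk2 lie near 0 on the x axis.

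Cdkn1b encodes p27, an inhibitor of CDK2 complexes that is regulated largely by its degradation. It was the steadiest Cip/Kip gene, at 27.1 and 34.1 CPM in WT and 28.1 and 26.2 in NHD13, and the groups overlapped. The log2 fold change was -0.18 ± 0.16 (adjusted p 0.539), and its 95% interval of -0.59 to 0.24 spans a level 1.51-fold lower to 1.18-fold higher in NHD13. Without WT library 2 it was 0.00078, on the other side of 0. Its counts came from 1 transcript that shares no stretch of 75 bases, the read length, with transcripts of other genes in GENCODE M21.

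Cdkn1c encodes p57, the Cip/Kip protein most often tied to the resting state of these cells, and is imprinted, with expression from the maternal copy. It was at 14.3 and 17.5 CPM in WT, against 9.52 and 18.9 CPM in the NHD13 pair. The NHD13 libraries 1 and 2 thus lay on either side of WT, differing 1.99-fold from each other. The log2 fold change was -0.16 ± 0.36 (adjusted p 0.810; 95% interval -1.09 to 0.76), turned to 0.25 without NHD13 library 1 and was -0.74 without NHD13 library 2. NHD13 library 1 is the library with the high neutrophil markers, at 2752 CPM summed, and their part in its lower Cdkn1c was not tested. The 11 stem cell markers summed to 3752 and 3895 CPM in WT and to 2219 and 2720 in NHD13 libraries 1 and 2. Of these 8 were, like Cdkn1c, lower in NHD13 library 1 than in NHD13 library 2, Fgd5 at 21.1 and 51.1 CPM, and 3 were higher, Hlf at 113 and 71.0, Ly6a at 131 and 77.7 and Slamf1 at 143 and 117 CPM. Of the read-length windows of the transcript 24.4 percent lie in the antisense gene Gm44732. The sources used here do not say how strand was handled, so part of its counts could come from that gene. In bulk samples fewer cells with a transcript and less RNA per cell cannot be told apart.

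The Ink4 genes were less abundant. Cdkn2d, which encodes p19Ink4d, was at 10.6 and 9.55 CPM in WT and 9.46 and 7.86 in NHD13. The NHD13 libraries lay below WT by a narrow margin, with a log2 fold change of -0.22 ± 0.21 (adjusted p 0.560; 95% interval -0.76 to 0.33). Cdkn2c, which encodes p18Ink4c, was at 5.13 and 4.41 CPM in WT and 3.41 and 2.94 in NHD13. Both NHD13 libraries were lower, by 1.5-fold in the fit (log2 fold change -0.59 ± 0.30; adjusted p 0.275; 95% interval -1.35 to 0.18). This gene kept its direction without any 1 library, with values from -0.69 to -0.48, and had -0.68 with the counts of its transcripts summed (adjusted p 0.176).

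Cdkn2b and Cdkn2a, neighbors that encode p15Ink4b, p16Ink4a and p19Arf and are known as genes of senescence, were at the edge of detection. For Cdkn2b WT gave 35 and 3 counts and NHD13 32 and 18, at most 0.931 CPM. The groups overlapped, the log2 fold change of 0.52 ± 1.12 had a 95% interval of -2.37 to 3.41, and it turned negative on leaving out WT library 2 (-0.32) or the first NHD13 library (-0.27). It was 2.92 without WT library 1 (adjusted p 0.387). Cdkn2a, with 9 and 0 counts in the WT libraries and 1 and 4 in the NHD13 libraries, did not pass the filter. The 0 counts in WT library 2 allow a level of up to 0.0821 CPM, by counting error only. Cdkn2a was at 0.207 and 0 CPM in WT and 0.0291 and 0.0816 in NHD13. Differences among levels this low could not be resolved at this depth, and no NHD13 library showed a clearly raised level.

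Cdkn2a makes its 2 proteins from separate first exons. The counted transcripts NM_009877 for p19Arf and NM_001040654 for p16Ink4a had 9 and 8 counts in WT library 1 and 4 and 3 in NHD13 library 2, and 61.4 percent of the read-length windows of the first also lie in the other. The windows of 250 bases before the starts are shown because both starts of the locus were near silent. They come from RefSeq, build GRCm38.p6, minus strand, at chr4:89294620-89294869 for p19Arf and chr4:89282193-89282442 for p16Ink4a, with GC boxes in capitals.
p19Arf start: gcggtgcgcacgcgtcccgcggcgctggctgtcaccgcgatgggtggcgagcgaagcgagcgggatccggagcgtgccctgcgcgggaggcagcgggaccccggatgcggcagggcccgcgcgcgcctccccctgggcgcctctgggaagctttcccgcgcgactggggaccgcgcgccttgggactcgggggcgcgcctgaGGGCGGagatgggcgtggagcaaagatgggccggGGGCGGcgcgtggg
p16Ink4a start: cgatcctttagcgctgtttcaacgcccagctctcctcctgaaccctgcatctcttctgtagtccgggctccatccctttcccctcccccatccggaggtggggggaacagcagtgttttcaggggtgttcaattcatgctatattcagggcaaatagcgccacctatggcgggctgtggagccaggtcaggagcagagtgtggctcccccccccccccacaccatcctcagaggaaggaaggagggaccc
The p19Arf window is rich in G and C, at 78.4 percent against 60.0 percent in the p16Ink4a window, and holds 2 GC boxes where the p16Ink4a window holds 0.

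**Figure D3:**
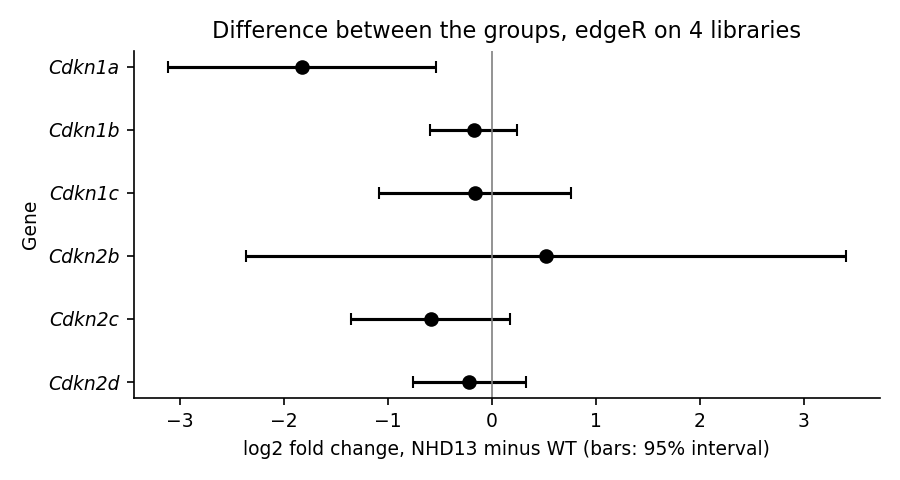
Log2 fold change of NHD13 over WT for the 6 tested CDK inhibitor genes, as points with unadjusted 95% intervals from edgeR on 4 libraries. The interval of Cdkn1a, -3.12 to -0.54, lies below 0, and those of the other 5 genes include 0.

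Levels were compared between genes per kilobase of transcript, using the lengths of matching GENCODE transcripts. In WT the order was Cdkn1a at 70.6 and 25.1 CPM per kilobase in libraries 1 and 2, Cdkn1b at 11.3 and 14.3, Cdkn1c at 7.60 and 9.29, Cdkn2d at 7.42 and 6.71, Cdkn2c at 2.07 and 1.78, Cdkn2b at 0.579 and 0.0591 and Cdkn2a at 0.231 and 0. The ranges of Cdkn1c and Cdkn2d were next to each other and those of Cdkn2a and Cdkn2b overlapped. In NHD13 Cdkn1a, at 12.5 and 14.5 CPM per kilobase, stood close to Cdkn1b at 11.7 and 10.9. Cdkn1c, at 5.04 and 10.0, overlapped Cdkn2d, at 6.65 and 5.52. The WT libraries were alike in this order and differed mainly in how far Cdkn1a stood above the rest.

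Shares within a library do not depend on how libraries are scaled. Cdkn1a made up 69.9 percent of the counts of the 7 genes in WT library 1 (exact binomial 95% interval 68.9 to 70.9) and 42.2 percent in WT library 2 (40.7 to 43.7). In NHD13 it made up 31.7 percent (29.9 to 33.6) and 33.0 percent (31.5 to 34.4). These intervals cover counting error only. The ratio of Cdkn1a to Cdkn1b counts was 4.98 and 1.4 in WT and 0.851 and 1.06 in NHD13, so the groups did not overlap, and the spread within WT was larger than the gap between WT library 2 and NHD13. Cdkn1b took 14 and 30.0 percent in WT and 37.3 and 31.1 percent in NHD13. The ratio of Cdkn2d to Cdkn2c was a little higher in both NHD13 libraries, at 2.06 and 2.17 in WT and 2.78 and 2.67 in NHD13. The summed level of the 7 genes was 193 and 114 CPM in WT and 75.3 and 84.0 in NHD13. Without Cdkn1a it was 58.2 and 65.7 in WT and 51.4 and 56.3 in NHD13.

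**Figure D4:**
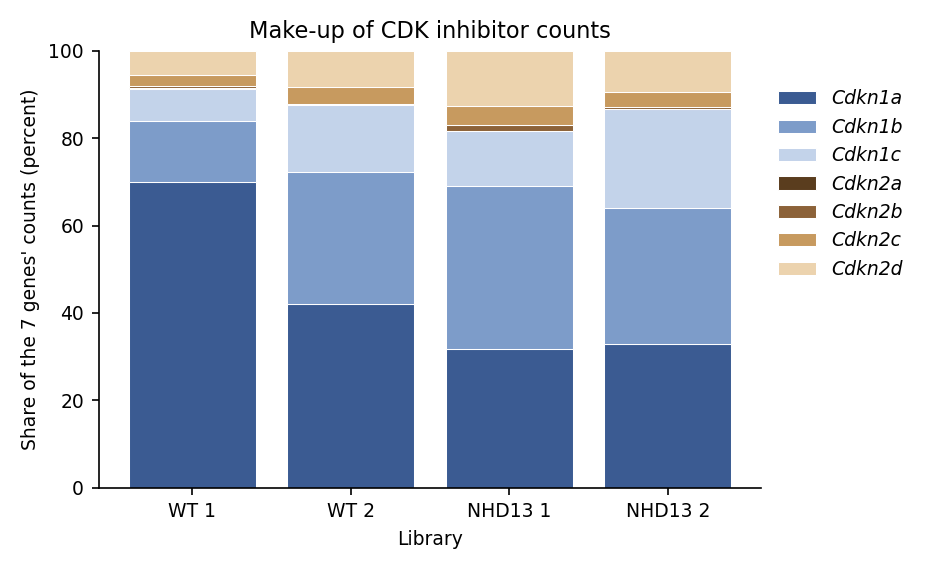
Share of each gene among the counts of the 7 CDK inhibitor genes, in percent, as stacked bars for each library, with blue for Cip/Kip and brown for Ink4 genes. The share of Cdkn1a is 69.9 percent in WT library 1, 42.2 in WT library 2 and 31.7 and 33.0 in NHD13.

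In a list of CDK and cyclin genes 4 of 16 were called, 3 higher and 1 lower in NHD13. Over all genes tested 2.07 percent were called higher and 2.22 percent lower. The list was not limited to targets of the CDK inhibitors and also held Cdk7, Ccnh, Mnat1 and Ccnc. Cdk6, bound by all Ink4 proteins, rose from 13.8 and 12.3 CPM in WT to 70.6 and 68.1 in NHD13 (log2 fold change 2.41 ± 0.13). The cyclin genes Ccne2 (1.16 ± 0.16), of the entry into S phase, and Ccnb2 (1.15 ± 0.18), of mitosis, also rose, and Ccnd3, a D-type cyclin, fell by 0.83 ± 0.10 on the log2 scale. The list median was 0.13. For each count of the summed Ink4 genes there were 0.825 and 0.875 counts of Cdk6 in WT and 5.11 and 6.05 in NHD13. The groups were far apart in this ratio. The Ink4 genes contributed less to the gap than Cdk6, with a sum of 16.7 and 14 CPM in WT and 13.8 and 11.2 in NHD13. Cdk4, the other kinase bound by Ink4 proteins, was at 333 and 350 CPM in WT and 424 and 385 in NHD13 (0.24 ± 0.09; adjusted p 0.183).

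The numbers of called genes depended on the libraries in the fit. On leaving out either WT library edgeR called 0 genes of any list and 0 in all, while 2332 genes (library 1 left out) and 2605 (library 2 left out) had an unadjusted p under 0.05. Without NHD13 library 1 it called 1 of the kinases and cyclins, and without NHD13 library 2 it called 3.

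Downstream of the kinases, 1 of 18 genes of the Rb family and E2F was called, or 5.56 percent, near the 4.28 percent of all genes tested. Rbl2, which encodes the pocket protein p130 of resting cells, fell by 0.67 ± 0.11 on the log2 scale. With library totals as scaling, with transcripts summed or without NHD13 library 1 the list had 0 calls. Log2 fold changes were above 0 in 15 of 18, with a median of 0.30. Among 22 genes of cycling cells all had log2 fold changes above 0, with a median of 0.75, and in 21 both NHD13 libraries lay above both WT libraries, where 30.1 percent of all genes tested did so. In this list 4 were called higher (18.2 percent, against 2.07 percent of all genes tested), namely Kif11 (1.53 ± 0.12), Ndc80 (1.17 ± 0.13), Cenpe (1.22 ± 0.16) and Hmmr (1.11 ± 0.13), which act on the mitotic spindle. The list kept 1 call on leaving out NHD13 library 1 and had 11 on leaving out the other. Ccna2 and Ccnb1 are in this list and among the kinases and cyclins, so the lists are not independent. In both NHD13 libraries Cd48 and 4 of 5 early myeloid markers (Mpo, Ms4a3, Ctsg and Elane) were also higher, and their part in the level of the cycling genes was not tested.

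The degradation of Kip proteins runs through the ubiquitin ligase of Skp2 and its cofactor Cks1b, and that of p21 also through Dtl. None of 15 genes of this turnover was called by edgeR, and 5 had an unadjusted p under 0.05, where 26.8 percent of all genes tested did. DESeq2 called 3 of the 15, where it called 17.5 percent of all genes, and limma-voom 0. These counts lie near the shares over all genes. Cks1b was at 54.1 and 47.2 CPM in WT and 86.1 and 77.8 in NHD13 (log2 fold change 0.69 ± 0.12; adjusted p 0.0512). Dtl was at 69.1 and 73.5 CPM in WT and 132 and 103 in NHD13 (0.72 ± 0.15; adjusted p 0.0673), and Skp2 was at 21.0 and 19.2 against 29.4 and 30.1 CPM (0.56 ± 0.13; adjusted p 0.0807). In these 3 genes both NHD13 libraries lay above both WT libraries, as they did in 9 of the 15 and in 30.1 percent of all genes tested. The list had 13 of 15 log2 fold changes above 0 and a median of 0.18, and without NHD13 library 2 edgeR called 1 member.

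Of 19 transcriptional regulators of the Cip/Kip genes 1 was called, or 5.26 percent, near the 4.28 percent of all genes tested. Hes1, a Notch target and repressor, fell by 2.25 ± 0.22 on the log2 scale, from 38.7 and 54.1 CPM to 10.5 and 8.92. Without NHD13 library 1 there were 2 calls. The forkhead gene Foxo3 was at 1.91 and 1.83 CPM in WT and 2.10 and 2.43 in NHD13 (0.27 ± 0.36). The list median was 0.20. Of 20 tested regulators of the Ink4 genes, among 22 in the list, 3 were called, or 15 percent, and without NHD13 library 1 there were 0. The Polycomb methyltransferase gene Ezh2 rose by 0.80 ± 0.13, and Hmga2 (-1.88 ± 0.23) and Id1 (-1.40 ± 0.18), whose products are known to hold back Cdkn2a, fell. Bmi1, the Polycomb gene needed to silence Cdkn2a in stem cells, was at 39.1 and 40.9 CPM in WT and 34.1 and 36.8 in NHD13 (-0.18 ± 0.12; adjusted p 0.390). The list median was 0.13.

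Cdkn1c lies in an imprinted domain next to that of Igf2 and H19. Of 12 tested genes of both domains, among 13 in the list, 2 were called, H19 (log2 fold change 4.04 ± 0.23) and the growth factor gene Igf2 (3.25 ± 0.39), both higher in NHD13. This is 16.7 percent, where 4.28 percent of all genes tested were called. Genes nearer to Cdkn1c had values on both sides of 0. Phlda2, which like Cdkn1c is expressed from the maternal copy, was at 7.70 and 8.35 CPM in WT and 1.54 and 2.84 in NHD13 (-1.87 ± 0.38; adjusted p 0.0662), and Slc22a18, the adjacent gene, was at 16.8 and 18.2 against 7.83 and 10.5 CPM (-0.93 ± 0.21; adjusted p 0.0790). Kcnq1ot1, the noncoding RNA that silences the domain on the paternal copy, was at 261 and 328 CPM in WT and 428 and 420 in NHD13 (0.53 ± 0.13; adjusted p 0.0922). In all 3 the groups did not overlap, as in 30.3 percent (NHD13 lower) and 30.1 percent (NHD13 higher) of all genes tested, unlike Cdkn1c, whose range in NHD13 enclosed that of WT. The list median was -0.17.

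**Figure D5:**
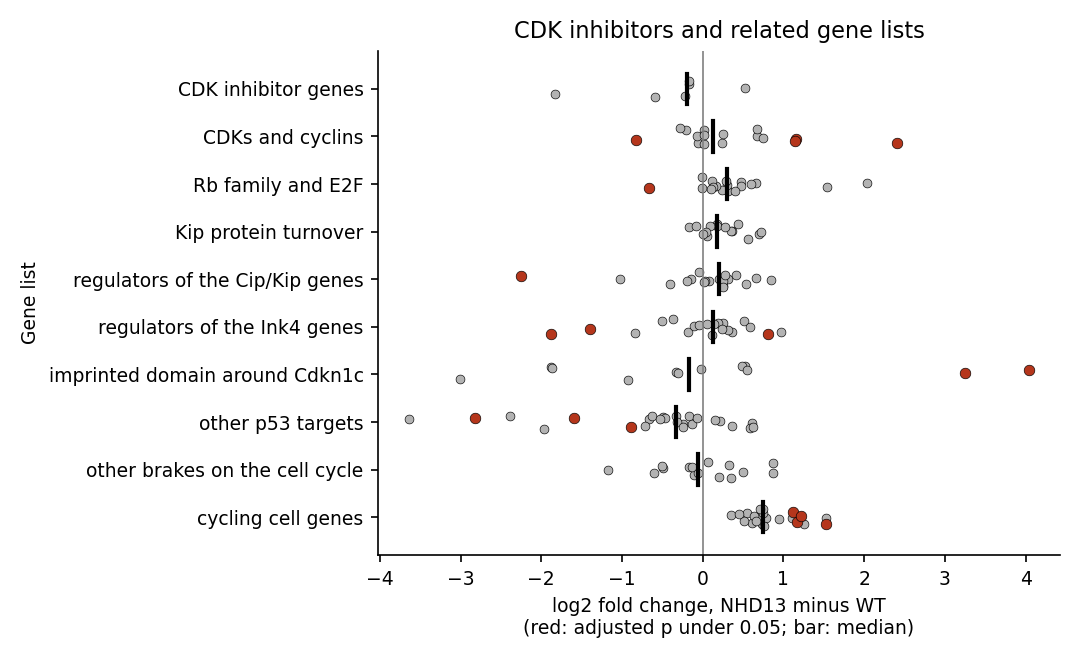
Log2 fold change of NHD13 over WT for each tested gene of the CDK inhibitors and 9 related lists, with called genes in red and list medians as bars. No CDK inhibitor gene is red, and all 22 genes of cycling cells lie above 0.

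Among 15 other brakes on the cell cycle edgeR called 0, with 5 at an unadjusted p under 0.05, and DESeq2 called 3 and limma-voom 0. Over all genes tested 26.8 percent lay under that p and DESeq2 called 17.5 percent, so these counts too were near the background. The inhibitory CDK kinase genes Pkmyt1 (log2 fold change 0.88 ± 0.24; adjusted p 0.103) and Wee1 (-0.60 ± 0.18; adjusted p 0.119) had the smallest p. The list had 7 values above 0 and 8 below, with a median of -0.05.

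The neighboring genes in GRCm38.p6 that the tables hold gave a mixed picture. Next to Cdkn1a, Trp53cor1, a noncoding RNA that p53 activates, was at 5.17 and 4.95 CPM in WT and 1.46 and 2.33 in NHD13 (log2 fold change -1.42 ± 0.37; adjusted p 0.0991). It was lower in NHD13 as Cdkn1a was, but level within WT. On the other side Rab44 rose by 1.83 ± 0.24, from 3.77 and 3.59 to 14.7 and 11.4 CPM. Mtap, beside Cdkn2a, was at 135 and 136 CPM in WT and 130 and 125 in NHD13, whereas Dmrta1, on the far side of Cdkn2b, had 6 counts in WT library 1 and 0 in the other 3. The near silence of Cdkn2a and Cdkn2b was thus shared by the gene on one side and not by that on the other.

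The genes most like each member over the 4 libraries were found by the root mean square distance of log2 CPM centered on each gene's mean, among 11333 other genes of average log2 CPM of at least 1. Nearest to Cdkn1a were Jup (distance 0.121), Trim2 (0.156) and Cyb561 (0.183), with Jup at 59.0 and 18.8 CPM in WT and 9.20 and 13.1 in NHD13. Nearest to Cdkn1b were Ago3 (0.0146), Tlcd2 (0.0170) and Vps39 (0.0177), and to Cdkn1c Bri3 (0.0417), Trim3 (0.0435) and Plekhf1 (0.0751). Cdkn2c was nearest to Lrpap1 (0.0215), Tom1 (0.0281) and Cytip (0.0334), and Cdkn2d to Ctsd (0.0140), Arhgap32 (0.0188) and Zfp583 (0.0247). For Cdkn2b the nearest were Sgms2 (0.275), Hs6st2 (0.435) and the p53 target Pmaip1 (0.437). With 4 libraries many genes of a flat profile lie close to each other by this measure. The distances were largest for Cdkn1a and Cdkn2b, which vary most, and were not scaled to that variation.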

How the data were processed

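Per the labels' protocols, cDNA was made from sorted-cell RNA with the SMARTer method and read as pairs on a HiSeq. The submitters' processing notes name Bowtie 0.12.2 and the build mm9. The deposited values are raw whole-number counts for 33018 RefSeq transcripts. Which program counted the reads, whether it used strand and what it did with multiply aligned reads is not given in the sources used here. Transcripts of 1 symbol can share reads, so each symbol was represented by its transcript with the highest total.

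The main test was edgeR 4.0.16 (R 4.3.3) on these counts, NHD13 against WT on 4 libraries, with its default filter on low counts, TMM scaling, the robust quasi-likelihood test and Benjamini-Hochberg adjustment over all 14853 genes, and genes under an adjusted p of 0.05 were called. CPM use the TMM-scaled totals. An SE is the log2 fold change over the square root of F. DESeq2 1.42.0 and limma-voom (limma 3.58.1) were alternatives, with other scalings and filters, summed transcripts, a replicate block and each library left out.

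Members and lists were chosen with earlier results of these data known. Named genes are the 7 members, called genes of each list and the 3 most alike to each member. From each list these were the 4 of smallest p at most, or the 2 of smallest p where none was called. Neighbors, Skp2, Cdk4, Trp53, Foxo3, Bmi1, Phlda2, Slc22a18, Kcnq1ot1 and Fgd5 were named after their values were seen. So were other cell type markers, the p53 targets high in WT library 1, the motifs and the other tested genes with a p53 match. Promoter windows were available for 6 of 7 members.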

Additional observations from a re-analysis of the deposited data

How the results depend on the processing

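Each tested CDK inhibitor gene kept its direction and stayed uncalled under other scalings, filters, tools, summed transcripts, a non-robust fit and both blocks, except that DESeq2 called Cdkn1a (log2 fold change -1.83), so that it called 1 member where edgeR called 0. With libraries left out in turn, Cdkn1b ranged from -0.34 to 0.00078, Cdkn1c from -0.74 to 0.25 and Cdkn2b from -0.32 to 2.92, each on both sides of 0, while Cdkn1a (-2.39 to -0.90), Cdkn2c (-0.69 to -0.48) and Cdkn2d (-0.35 to -0.08) stayed below 0. Cdkn2b did not pass the stricter filter, which asked for 1 CPM in each library of 1 group.

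With the counts of all transcripts of a gene summed, Cdkn1a took 77.6 and 52.2 percent of the 7 genes' counts in WT and 42.7 and 41.5 percent in NHD13. Both WT shares were again above both NHD13 shares, while the order of the NHD13 libraries reversed (31.7 and 33.0 percent in the main setting). Summing adds the counts of both Cdkn1a transcripts, which can share reads.

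The number of calls moved more. Over all genes edgeR called 636, or 1138 without a filter, 1066 with the stricter filter, 402 with summed transcripts, 107 with the replicate block and 0 to 990 with libraries left out, and DESeq2 called 2604. Against 4 kinases and cyclins, 1 Rb and E2F gene, 0 turnover genes, 1 Cip/Kip regulator, 3 Ink4 regulators, 2 imprinted genes, 3 p53 targets, 0 other brakes and 4 genes of cycling cells, DESeq2 called 7, 5, 3, 4, 6, 8, 6, 3 and 15. With libraries left out the ranges in the same order were 0 to 3, 0 to 1, 0 to 1, 0 to 2, 0 to 3, 0 to 3, 0 to 2, 0 to 0 and 0 to 11. Without a filter edgeR called 3 Rb and E2F genes, 2 turnover genes, 3 Cip/Kip regulators and 9 genes of cycling cells, and with the stricter filter 3 Rb and E2F genes, 1 turnover gene, 2 Cip/Kip regulators and 4 imprinted genes. For the Rb and E2F list limma-voom called 2, and library totals, summed transcripts and the non-robust fit each gave 0. The cause of these shifts was not tested.

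The replicate numbers are not said to pair libraries, and same-numbered libraries deviated in opposite directions (r = -0.21 across 12201 genes, which are not independent). With the replicate block edgeR called 1 of the kinases and cyclins, 0 Rb and E2F genes, 0 Cip/Kip regulators, 0 Ink4 regulators, 1 imprinted gene, 0 p53 targets and 1 gene of cycling cells. With the crossed pairing as a block, chosen after seeing the data, it called 647 genes, 0 members, 0 Rb and E2F genes and 5 p53 targets.

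With 2 libraries per group the intervals are wide: for Cdkn1c the 95% interval reaches 2.12-fold lower and 1.69-fold higher in NHD13. Cdkn2a is limited by depth, and Cdkn2b by low counts and by the spread within WT, at 35 and 3 counts.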
